A study of Mus musculus with 2 samples.

Results

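The interleukin-6 (IL-6) family was read through 10 genes chosen by their symbols: the ligand genes Il6, Il11, Lif and Osm, the receptor genes Il6ra, Il11ra1, Lifr, Osmr and Il6st, and the feedback inhibitor Socs3. All 10 were found among the 32285 genes of the count tables. The data are single-cell RNA counts from 1 colotomy library and 1 sham library. A colotomy is an incision of the colon. Each library holds dissociated bowel cells and cells of mesenteric adipose tissue, the fat along the bowel, from B6/C57 mice aged 8 to 12 weeks at day 14 after the operation, and the 2 tissues were pooled after staining with hashtag antibodies. The labels give neither the number nor the sex of the mice. The operation was part of a study on fibroblasts of the fat around the gut in strictures. Each operation has 1 library and no replicate, and no difference between the operations could be tested. Every interval below is a 95% interval that covers counting error only, and not differences between animals, digestions or libraries.

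IL-6 family cytokines act through receptor complexes that share the gp130 chain, encoded by Il6st. Il6ra and Il11ra1 encode the chains that bind IL-6 and interleukin-11, while Lifr and Osmr pair with gp130 for leukaemia inhibitory factor and oncostatin M. The complexes activate JAK kinases and STAT3, and STAT3 drives Socs3, whose protein binds gp130 and damps the signal. In the inflamed gut, oncostatin M is known as a product of myeloid cells that acts on stromal and endothelial cells, and IL-6 and interleukin-11 are known products of activated fibroblasts.

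The colotomy library held 9246 cells and the sham library 42143, counting barcodes that had 500 gene UMIs or more, 300 genes or more and less than 20% of UMIs from mitochondrial genes. A UMI is 1 counted RNA molecule. Median depth was 778.5 UMIs per colotomy cell and 1328 per sham cell, and 190 barcodes occurred in both libraries. Cells were clustered without the 10 genes and named by marker genes as neutrophil-like, fibroblast-like and so on. Of 16 classes, 15 held at least 50 cells in each library and were compared. Fibroblast-like cells numbered 3427 in the colotomy library and 5300 in the sham library, macrophage-like cells 625 and 1865, monocyte-like cells 562 and 1608, neutrophil-like cells 183 and 86, and vascular endothelial-like cells 176 and 1201. The monocyte-like name rests on 3 of its 8 markers. Insulin genes led a B-like cluster. Xist, the RNA that coats the inactive X chromosome of female cells, stood at 102 to 1719 CPM (UMIs of a gene per 1000000 gene UMIs of the class) over the colotomy classes and at 0 to 3.16 CPM over the sham classes, so the sex of the animals and the operation cannot be told apart. Numbers of cells per class were not compared between the libraries, and the share of a gene's UMIs held by a class follows them. The hashtags did not separate the tissues either: the median log2 ratio of hashtag 1, labelled bowel, to hashtag 2, labelled fat, was 2.78 in colotomy epithelial-like cells and 2.52 in colotomy fibroblast-like cells, against -1.21 and -1.27 in the same sham classes. Hashtag calls came from 2 fitted components per hashtag and were poorly separated. For hashtags 1 and 2 the component means lay 0.979 and 0.881 standard deviations apart in the colotomy library and 0.625 and 0.173 in the sham library. Neither hashtag was called in 6165 colotomy and 33391 sham cells. A value for cells called for a hashtag is thus read only as that of a smaller set of cells. No result below is given by tissue.

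Within a class, a gene is written as higher or lower in the colotomy library where it had at least 10 UMIs over both libraries, where its CPM differed at least 1.5-fold and where the interval of the ratio left out 1. In fibroblast-like cells 5 of the 10 members were higher (Il6, Il11, Osm, Il11ra1 and Osmr) and 0 lower, beside 12.8% of all tested genes higher and 13.4% lower. In macrophage-like cells 5 of 7 tested members were higher (Osm, Il6st, Il11ra1, Osmr and Socs3) and 1 lower (Lifr), beside 12.5% and 11.5% of all tested genes. In monocyte-like cells 2 of 6 were higher (Osm and Socs3) and 0 lower, beside 9.81% and 6.11%. In vascular endothelial-like cells 2 of 6 were higher (Il6st and Il11ra1) and 1 lower (Il6ra), beside 7.23% and 4.19%. In neutrophil-like cells 0 of 4 were called in either direction, beside 8.2% higher and 9.92% lower. The members were called higher more often than all genes in fibroblast-like, macrophage-like, monocyte-like and vascular endothelial-like cells, over counts too small for more than that description.

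In the other classes that were compared, the shares of all tested genes called higher and lower set the background for the calls named below. They were 13.1% and 8.2% in epithelial-like, 10.2% and 7.22% in goblet-like, 6.48% and 3.8% in tuft-like, 12.1% and 6.88% in plasma-like and 8.84% and 4.12% in smooth muscle or pericyte-like cells. They were 8.7% and 4.49% in lymphatic endothelial-like, 6.06% and 4.9% in mesothelial-like, 4.41% and 1.8% in dendritic-like, 4.09% and 0.855% in T-like, 6.11% and 1.8% in B-like and 24.1% and 10.6% in unnamed cells.

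**Figure D1:**
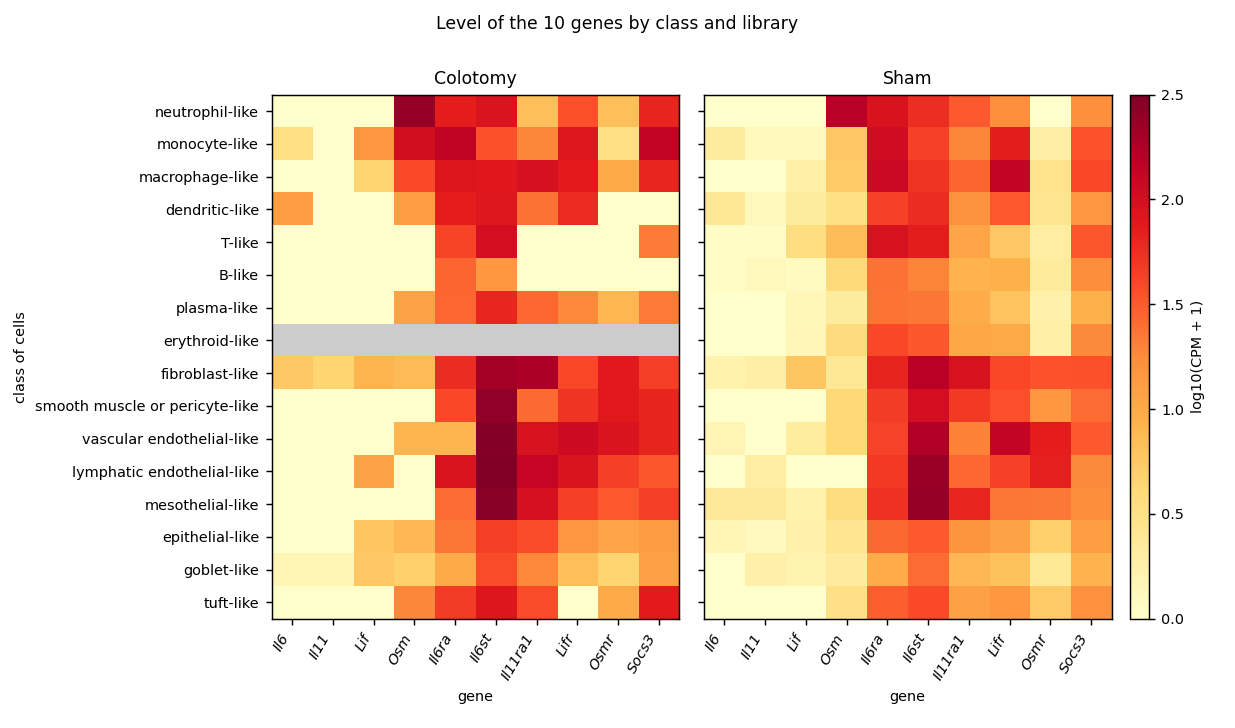
Level of the 10 genes as log10(CPM + 1), by class of cells (rows) in the colotomy library (left) and the sham library (right). Grey marks a class with fewer than 50 cells in the library. Osm is darkest in neutrophil-like cells of both libraries, at 237 CPM in the colotomy library and 158 CPM in the sham library, while Il6st reaches its highest levels in the endothelial-like and mesothelial-like rows.

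Among the ligands, Osm had its highest levels in neutrophil-like cells and, among the named classes, the largest called ratio in monocyte-like cells. Neutrophil-like cells had 41 Osm UMIs in the colotomy library and 20 in the sham library, at 237 CPM (170 to 321) and 158 CPM (96.5 to 244). The ratio of 1.5 (0.858 to 2.70) was not called, so a difference in level was not detectable at this depth. Free RNA in the droplets, estimated from genes of other lineages, would give 4.93 and 3.18 CPM. Monocyte-like cells had 45 Osm UMIs in the colotomy library and 17 in the sham library, at 103 CPM (75.3 to 138) and 4.83 CPM (2.81 to 7.73), a ratio of 21.4 (12.0 to 39.9). Macrophage-like cells had 21 UMIs in the colotomy library and 16 in the sham library, at 37.6 CPM (23.3 to 57.5) and 4.41 CPM (2.52 to 7.16), a ratio of 8.53 (4.24 to 17.5). In order of level, the colotomy neutrophil-like, monocyte-like and macrophage-like intervals did not overlap, whereas the sham monocyte-like and macrophage-like intervals overlapped each other and that of sham T-like cells, at 6.02 CPM (4.62 to 7.70). Free RNA would give 8.03 CPM in colotomy and 1.19 CPM in sham monocyte-like cells, and 5.44 and 1.5 CPM in macrophage-like cells, and both calls held with it subtracted. Among cells that had Y-linked but no Xist UMIs, and among those called for 1 hashtag only, neither class was called, at log2 ratios of 2.43 to 2.73 in monocyte-like and 0.65 to 3.83 in macrophage-like cells.

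Cells with an Osm UMI were counted after thinning every cell to 500 UMIs. They made up 3.91% (2.47 to 5.87) of colotomy monocyte-like cells, whose median depth was 690.5 UMIs, and 0.311% (0.101 to 0.724) of sham monocyte-like cells, whose median depth was 1940. Goblet-like cells, which secrete mucus and are not known for Osm, gave 0.111% in the colotomy library at a median depth of 997 and 0.142% in the sham library at 2982. Without thinning the shares of monocyte-like cells were 5.87% and 0.871%. The colotomy share lay above the goblet-like share, and the sham share was too close to it to be read as expression.

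Neutrophil RNA was also more common outside neutrophil-like cells in the colotomy library, and Osm was therefore set beside S100a9, which encodes a granulocyte calcium-binding protein. Monocyte-like cells held 31.3 Osm UMIs per 100 S100a9 UMIs in the colotomy library (21.8 to 44.0), against 0.509 (0.365 to 0.691) in colotomy neutrophil-like cells. In the sham library the monocyte-like ratio was 77.3 (38.5 to 152), against 0.658 (0.401 to 1.02) in neutrophil-like cells. Colotomy macrophage-like cells held 23.9 (14.1 to 38.8) and sham ones 25.0 (13.5 to 43.8). Colotomy fibroblast-like cells held 6.45 (3.77 to 10.4) and goblet-like cells 5.42 (2.44 to 10.5). Colotomy plasma-like cells held 12, and their interval overlapped that of macrophage-like cells. In the sham library T-like cells held 94, fibroblast-like cells 37.1 and goblet-like cells 18.2, against 6.73 in epithelial-like and 2.38 in tuft-like cells. The T-like interval overlapped the sham monocyte-like one, and the fibroblast-like and goblet-like intervals the sham macrophage-like one. A high sham ratio was thus not particular to myeloid cells. Colotomy tuft-like cells held 2 Osm UMIs beside 202 S100a9 UMIs, or 0.990 (0.119 to 3.62), an interval that includes the neutrophil-like ratio, and lymphatic endothelial-like cells held 0 beside 82. The part of free neutrophil RNA in the Osm values was not tested with this ratio. The 8 neutrophil markers summed to 665 CPM in colotomy monocyte-like cells with 1 marker at 0, and to 38.9 CPM in sham monocyte-like cells with 0 at 0. In macrophage-like cells they summed to 444 CPM and 200 CPM, with 1 marker at 0 in each library.

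Osm was higher in colotomy fibroblast-like cells too, with 18 UMIs against 13 in the sham library, at 6.44 CPM and 1.42 CPM, a ratio of 4.54 (2.10 to 10.1). Free RNA would give these cells 3.88 CPM in the colotomy library and 0.615 CPM in the sham library. With it subtracted the call was lost, at a log2 ratio of 1.67. Goblet-like cells stood at 4.0 CPM in the colotomy library and 1.18 CPM in the sham library, a ratio of 3.38 (1.07 to 11.5), beside 3.18 and 0.514 CPM expected from free RNA. The neutrophil markers summed to 197 CPM in colotomy fibroblast-like cells and 17.1 CPM in the sham ones, and their part in the result was not tested.

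**Figure D2:**
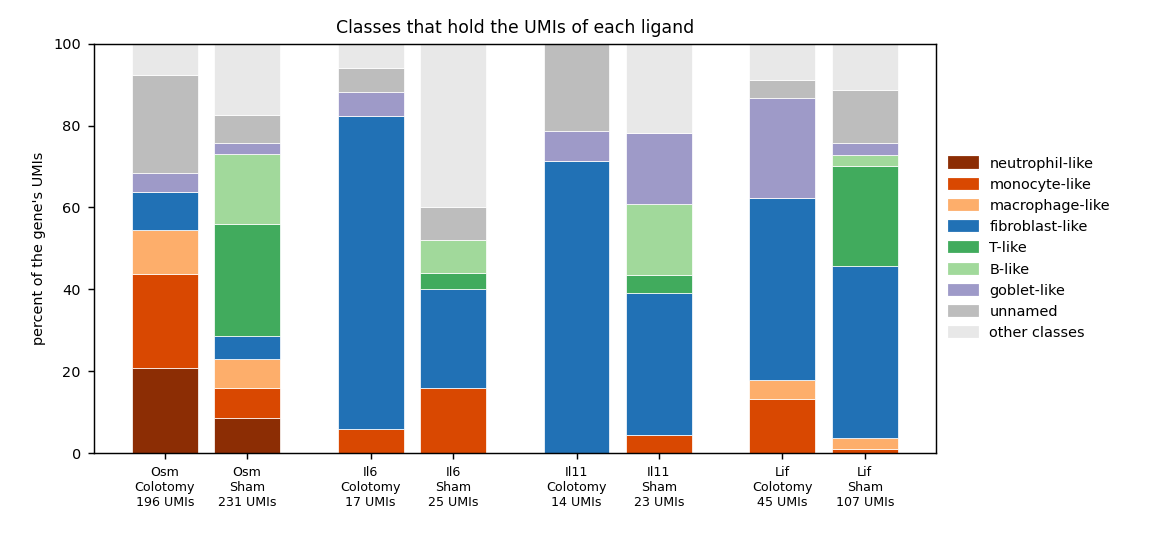
Share of each ligand gene's UMIs held by each class of cells, in percent, for Osm, Il6, Il11 and Lif, with the colotomy bar left of the sham bar and the UMI total under each bar. Fibroblast-like cells hold 76.5% of colotomy Il6 UMIs and 24.0% of sham Il6 UMIs, and T-like and B-like cells hold 63 and 40 of 231 sham Osm UMIs.

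Il6 was rare: 17 UMIs were counted in all kept colotomy cells and 25 in all kept sham cells. Fibroblast-like cells held 13 of the 17 in the colotomy library, or 76.5% (50.1 to 93.2), and 6 of the 25 in the sham library, or 24.0% (9.36 to 45.1). These cells supplied 32.0% of all UMIs in the colotomy library and 13% in the sham library. The interval of the gene's share lay above the share of all UMIs in the colotomy library and included it in the sham library. Their level was 4.65 CPM (2.48 to 7.95) in the colotomy library and 0.655 CPM (0.240 to 1.42) in the sham library, a ratio of 7.10 (2.52 to 22.8). Free RNA would give 0.288 CPM and 0.0678 CPM. The call was lost among cells that had Y-linked but no Xist UMIs, at a log2 ratio of 3.23 against 2.83 in all cells. The sham library also had 5 Il6 UMIs in dendritic-like cells and 4 in monocyte-like cells, while the colotomy library had 1 in each.

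Il6 lies on chromosome 5 (chr5:30013114-30019981, plus strand, GRCm38). The 250 bases before its start are printed because they held matches to 3 of the 4 motifs searched on both strands, more than those of any other member with a RefSeq entry. Capitals mark the matches, from left to right AP-1 (TGANTCA), C/EBP (TTGCNNAA) and NF-kB (GGGANTTTC), which do not overlap. The sequence is RefSeq's for GRCm38.p6, chr5:30012864-30013113, plus strand.
Il6: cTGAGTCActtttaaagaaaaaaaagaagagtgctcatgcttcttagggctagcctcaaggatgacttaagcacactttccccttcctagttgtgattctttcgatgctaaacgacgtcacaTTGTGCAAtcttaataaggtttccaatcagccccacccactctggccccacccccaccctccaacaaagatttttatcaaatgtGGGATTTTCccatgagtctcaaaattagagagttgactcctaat
Among 32851 mouse promoters of this length, 6.75% held the AP-1 motif, 9.56% the C/EBP motif and 0.941% the NF-kB motif. Of the 9 members with a RefSeq entry, AP-1 was also matched before 1 start of Il11 and before that of Lif, and the receptor genes Il6ra, Il6st, Il11ra1, Lifr and Osmr held none of the 4 motifs in this window. Osm had no entry, so the bases before its start were not searched. A match is a run of letters and not a bound site.

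Il11, whose product is a growth factor known for a part in fibrosis, had 14 UMIs in the colotomy library and 23 in the sham library. Fibroblast-like cells held 10 in the colotomy library and 8 in the sham library, at 3.58 CPM (1.72 to 6.58) and 0.873 CPM (0.377 to 1.72), a ratio of 4.10 (1.46 to 11.9). The level expected from free RNA was 0.210 CPM and 0.0678 CPM. Among cells with Y-linked but no Xist UMIs and among those called for hashtag 2, the gene was not called, at log2 ratios of 2.23 and 2.17 against 2.04 in all cells. Beyond them, 0 colotomy classes had more than 1 UMI, while 3 colotomy UMIs lay in unnamed clusters.

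Lif, the gene of leukaemia inhibitory factor, was spread more widely and differed less in fibroblasts. Fibroblast-like cells held 20 of 45 UMIs in the colotomy library and 45 of 107 in the sham library. Their level was 7.15 CPM (4.37 to 11) in the colotomy library and 4.91 CPM (3.58 to 6.57) in the sham library, and the ratio of 1.46 (0.815 to 2.52) was not called. Goblet-like cells had 11 UMIs in the colotomy library and 3 in the sham library, at 4.89 CPM and 0.592 CPM, a ratio of 8.27 (2.18 to 46.1), beside 0.622 and 0.242 CPM expected from free RNA. Monocyte-like cells had 6 colotomy UMIs and 1 sham UMI, too few for the count threshold, and their ratio was 48.5 (5.88 to 2230). Sham T-like cells held 26 Lif UMIs, at 2.48 CPM, and the 69 colotomy T-like cells held 0.

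The oncostatin M receptor gene Osmr was found mainly in stromal and endothelial cells and was higher in colotomy fibroblasts. Fibroblast-like cells had 208 Osmr UMIs in the colotomy library and 305 in the sham library, at 74.4 CPM (64.6 to 85.2) and 33.3 CPM (29.6 to 37.2), a ratio of 2.24 (1.87 to 2.68). The free RNA estimate was 4.35 CPM and 1.72 CPM. Of 17 other settings the call was lost only within 1 of the class's clusters, described with the subsets below. The call held among cells with Y-linked but no Xist UMIs. It also held among those called for either hashtag, though the hashtag calls were poorly separated. Fibroblast-like cells held 75.4% of the Osmr UMIs of the colotomy library and 47.5% of those of the sham library. Vascular endothelial-like cells had 12 UMIs in the colotomy library and 133 in the sham library, at 85.4 CPM (44.1 to 149) and 70.4 CPM (59.0 to 83.4), and the ratio of 1.21 was not called. Lymphatic endothelial-like cells stood at 43.1 CPM in the colotomy library and 67.8 CPM in the sham library, a ratio of 0.636 (0.168 to 1.71). In a finer clustering of the same cells, this name went to 90 colotomy and 342 sham cells, instead of 93 and 618. There an unnamed cluster with 4 lymphatic endothelial and 7 of 9 B markers held 4 colotomy and 320 sham cells. The part of that mix in the ratio was not tested. In the sham library both endothelial levels thus lay above the fibroblast-like level with no overlap, whereas in the colotomy library the fibroblast-like level lay inside both endothelial intervals.

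Smooth muscle or pericyte-like cells had 6 Osmr UMIs in the colotomy library and 17 in the sham library, at 76.3 CPM (28.0 to 166) and 13.4 CPM (7.83 to 21.5), a ratio of 5.67 (1.83 to 15.1). In the finer clustering this name went to 95 colotomy and 445 sham cells, instead of 96 and 931. An unnamed cluster there had 3 of 9 smooth muscle or pericyte and 9 of 9 B markers and held 2 colotomy and 553 sham cells. The part of that mix in the ratio was not tested. Macrophage-like cells had 5 and 7 Osmr UMIs, at 8.95 CPM in the colotomy library and 1.93 CPM in the sham library, a ratio of 4.64 (1.16 to 17). That call was lost with free RNA subtracted, and fibroblast markers summed to 3478 CPM in colotomy macrophage-like cells and 289 CPM in sham ones. Within the macrophage-like clusters the ratios were 1.28 (0.183 to 14.1) and 3.11 (0.0657 to 27.8), neither called. T-like and B-like cells of the sham library stood near 1 CPM, at 1.05 and 1.22.

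After thinning to 1000 UMIs, an Osmr UMI was found in 5.96% (4.29 to 8.03) of 671 colotomy fibroblast-like cells and 3.30% (2.78 to 3.87) of 4308 sham ones, with 2756 colotomy and 992 sham cells too shallow to be used. Goblet-like cells gave 0 of 901 in the colotomy library, which allows up to 0.333%, and 0.153% in the sham library. Median depth was 712 UMIs for colotomy and 1524 for sham fibroblast-like cells, against 997 and 2982 for goblet-like cells. The unthinned shares of fibroblast-like cells were 5.63% and 5.36%.

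**Figure D3:**
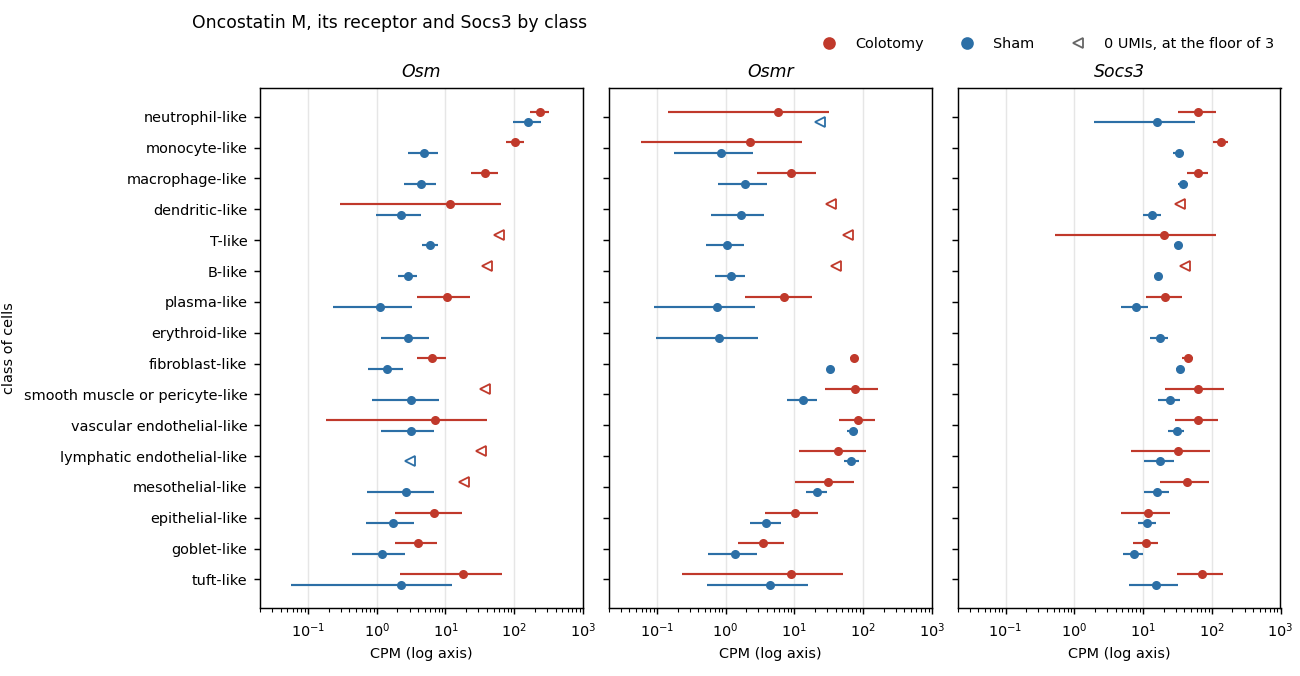
Level of Osm, Osmr and Socs3 in CPM (log axis) by class of cells, with colotomy points in red above sham points in blue and bars for the 95% counting interval. Open triangles mark 0 UMIs, drawn at the level of 3 UMIs. Osm sits highest in neutrophil-like cells, Osmr in stromal and endothelial-like cells, and colotomy Socs3 in monocyte-like cells at 135 CPM.

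Il11ra1, the interleukin-11 receptor gene, was called higher in 7 of the 13 classes where it could be tested, more than any other member. Fibroblast-like cells had 502 UMIs in the colotomy library and 834 in the sham library, at 180 CPM (164 to 196) and 91.0 CPM (84.9 to 97.4), a ratio of 1.97 (1.76 to 2.21), and of 17 other settings the call was lost only within the same cluster as that of Osmr. Macrophage-like cells stood at 93.1 CPM in the colotomy library and 27.3 CPM in the sham library, a ratio of 3.41 (2.39 to 4.82). The ratio was not called inside either macrophage-like cluster, at 1.37 (0.791 to 2.47) and 1.77 (0.780 to 3.53), and the clusters are described with Lifr. Vascular endothelial-like cells stood at 92.5 and 19.1 CPM, a ratio of 4.85 (2.36 to 9.37), and lymphatic endothelial-like cells at 129 and 26.7 CPM, a ratio of 4.85 (2.23 to 9.95). The part of the mixed lymphatic cluster, described with Osmr, in the lymphatic endothelial-like ratio was not tested. The fibroblast-like level was the highest of the named classes in each library, though its colotomy interval lay inside that of lymphatic endothelial-like cells.

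The other classes in which Il11ra1 was higher were epithelial-like cells at 35.9 CPM in the colotomy library and 13.9 CPM in the sham library, goblet-like cells at 17.8 and 6.71 CPM, and plasma-like cells at 26.5 and 8.51 CPM. The finer clustering left 394 colotomy and 852 sham cells under the plasma-like name, instead of 528 and 904. An unnamed cluster there had 7 of 8 plasma and 7 of 10 fibroblast markers and held 149 colotomy and 61 sham cells. Col1a1 stood at 974 CPM in colotomy and 60.7 CPM in sham plasma-like cells, and the part of that mix was not tested. Free RNA would give 10.4 CPM in colotomy and 3.73 CPM in sham goblet-like cells, 26.6 and 9.03 CPM in epithelial-like cells, 17.8 and 10.9 CPM in macrophage-like cells and 30.4 and 10.8 CPM in vascular endothelial-like cells. With it subtracted the fibroblast-like, macrophage-like and vascular endothelial-like calls held, and in the other classes its part in the result was not tested. Monocyte-like cells did not show a difference beyond counting error, at 18.4 and 18.2 CPM, a ratio of 1.01 (0.418 to 2.11). Thinned to 1000 UMIs, 12.8% (10.4 to 15.6) of colotomy and 8.64% (7.81 to 9.51) of sham fibroblast-like cells had an Il11ra1 UMI, against 1.33% and 0.844% of goblet-like cells. Unthinned, the fibroblast-like shares were 13% and 13.8%. The mouse genome holds near copies of this gene named Il11ra2, which had 0 UMIs, so reads that could belong to either were counted here under Il11ra1 or lost.

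Il6st, the shared gp130 chain, had its highest levels in endothelial, mesothelial and stromal cells. In the colotomy library it stood at 302 CPM (201 to 436) in lymphatic endothelial-like, 292 CPM (209 to 396) in vascular endothelial-like, 288 CPM (211 to 384) in mesothelial-like, 254 CPM (155 to 393) in smooth muscle or pericyte-like and 204 CPM (187 to 221) in fibroblast-like cells. These intervals overlapped for neighbours in the order. In the sham library the same classes stood at 234, 174, 240, 99.7 and 155 CPM. The gene was called higher in vascular endothelial-like cells, by 1.68-fold (1.18 to 2.32), in smooth muscle or pericyte-like cells, by 2.55-fold (1.51 to 4.11), in macrophage-like cells, by 1.55-fold (1.09 to 2.17), and in plasma-like cells, by 2.78-fold (1.78 to 4.29). The macrophage-like call was lost under 9 of 17 other settings, at log2 ratios of 0.32 to 1.24. The part of mixed clusters in the smooth muscle or pericyte-like, lymphatic endothelial-like and plasma-like levels, described with Osmr and Il11ra1, was not tested. Fibroblast-like cells had 569 UMIs in the colotomy library and 1418 in the sham library, and the ratio of 1.32 (1.19 to 1.45) was under the 1.5-fold threshold. An Osmr and an Il6st UMI were found together in 29 of 3427 colotomy and 78 of 5300 sham fibroblast-like cells, and an Il11ra1 and an Il6st UMI in 88 and 185.

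Il6ra, which encodes the IL-6-binding chain that immune cells and hepatocytes are known for, was highest in monocyte-like cells of the colotomy library and in macrophage-like cells of the sham library and was called higher in 0 of 15 classes. Monocyte-like cells stood at 138 CPM (105 to 177) in the colotomy library and 106 CPM (95.7 to 118) in the sham library, and macrophage-like cells at 84.2 CPM (61.8 to 112) and 117 CPM (106 to 128). The ratios of 1.30 (0.970 to 1.71) and 0.722 (0.522 to 0.977) were not called. Fibroblast-like cells stood at 56.5 and 64.1 CPM, a ratio of 0.881 (0.734 to 1.05). The gene was called lower in vascular endothelial-like cells, on 1 colotomy UMI and 78 sham UMIs, at 7.12 and 41.3 CPM, a ratio of 0.172 (0.00431 to 0.989). That call was lost under 8 of 15 other settings.

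Lifr, the receptor gene for leukaemia inhibitory factor, was highest in endothelial and myeloid cells. Vascular endothelial-like cells stood at 114 CPM (65.1 to 185) in the colotomy library and 132 CPM (116 to 149) in the sham library. Macrophage-like cells had 41 UMIs in the colotomy library and 487 in the sham library, at 73.4 CPM (52.7 to 99.6) and 134 CPM (123 to 147), a ratio of 0.547 (0.388 to 0.753). This lower level went with a different mix of clusters. The cluster led by Mmp12, Spp1 and Gpnmb held 335 of 625 colotomy and 91 of 1865 sham macrophage-like cells, and the cluster led by Pf4, C1qa and Folr2 held the other 290 and 1774. Within the first the ratio was 1.10 (0.398 to 3.29), and within the second 0.938 (0.622 to 1.37), so the gene was not called inside either cluster, where 5.82% and 4.76% of all tested genes were lower. Plasma-like cells were the only class in which Lifr was called higher, at 17.7 CPM in the colotomy library and 5.18 CPM in the sham library, a ratio of 3.41 (1.35 to 8.25). The part of the mix with fibroblast markers, described with Il11ra1, in that ratio was not tested. Fibroblast-like cells stood at 39.3 and 39.8 CPM, a ratio of 0.988 (0.791 to 1.23).

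**Figure D4:**
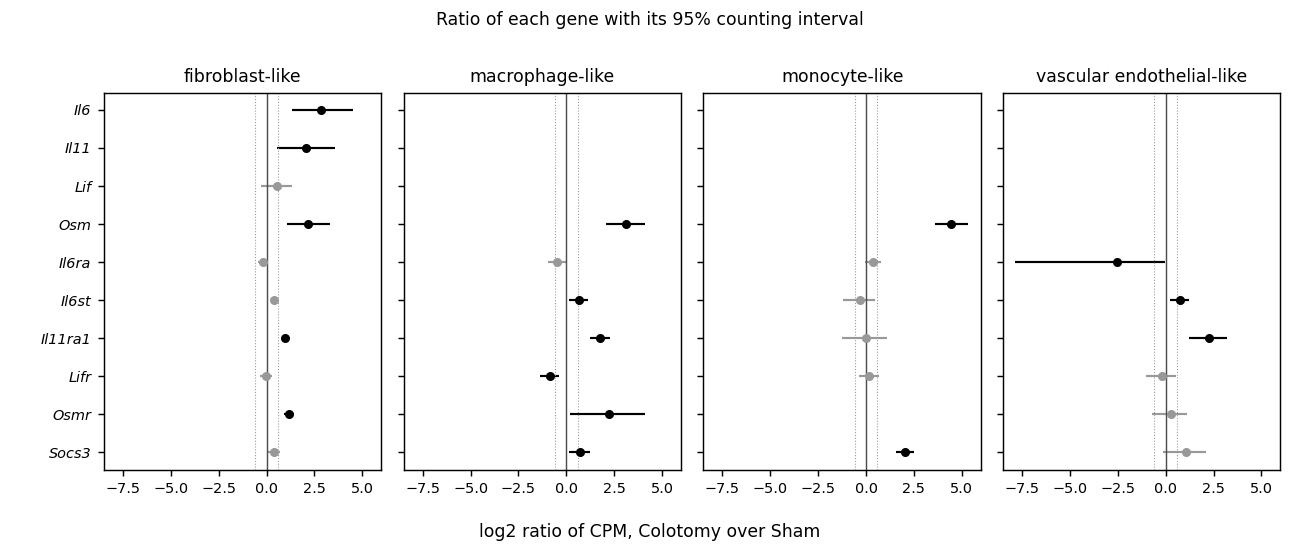
Log2 ratio of CPM, colotomy over sham, for each tested gene in 4 classes of cells, with bars for the 95% counting interval. Black points met the rule for a call, grey points did not, and dotted lines mark 1.5-fold. Osm in monocyte-like cells lies farthest to the right at a log2 ratio of 4.42, and Il6ra in vascular endothelial-like cells has the widest interval.

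Socs3, the feedback inhibitor, was higher in 4 of 15 classes and highest in colotomy monocyte-like cells. Monocyte-like cells had 59 UMIs in the colotomy library and 117 in the sham library, at 135 CPM (103 to 175) and 33.2 CPM (27.5 to 39.8), a ratio of 4.07 (2.93 to 5.62). The free RNA estimate there was 11.7 CPM and 7.87 CPM. Macrophage-like cells stood at 62.7 CPM (43.7 to 87.2) in the colotomy library and 38.3 CPM (32.2 to 45.2) in the sham library, a ratio of 1.64 (1.10 to 2.38). The monocyte-like call was lost among cells with Y-linked but no Xist UMIs and for either hashtag, at log2 ratios of 0.63, 3.14 and 0.88 against 2.03 in all cells. The macrophage-like log2 ratio of 0.71 was lost under 7 of 17 other settings and was -0.17 and -0.013 for the hashtags. Tuft-like cells, which sense the gut content, stood at 72.8 and 15.5 CPM on 8 colotomy and 7 sham UMIs, and plasma-like cells at 21.2 and 7.77 CPM, ratios of 4.69 (1.49 to 15.2) and 2.73 (1.22 to 5.80). The part of the mixed plasma cluster, described with Il11ra1, in the plasma-like ratio was not tested. In tuft-like cells Col1a1 stood at 1446 CPM in the colotomy library and 71.0 CPM in the sham library, and S100a9 at 1838 and 93.2 CPM. Of the free RNA list, Hbb-bs, Hba-a1, Cd79a and Cd3e were lower there. The part of other cells' RNA in the tuft-like ratio was not tested. In the sham library the macrophage-like, fibroblast-like, monocyte-like, T-like and vascular endothelial-like levels, from 38.3 down to 30.7 CPM, all had overlapping intervals, whereas in the colotomy library the monocyte-like interval lay above that of macrophage-like cells.

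Fibroblast-like cells had 124 Socs3 UMIs in the colotomy library and 314 in the sham library, at 44.4 and 34.3 CPM, and the ratio of 1.29 (1.04 to 1.60) was under the threshold. Neutrophil-like cells had 11 and 2, at 63.5 and 15.8 CPM, and vascular endothelial-like cells 9 and 58, at 64.1 and 30.7 CPM. Neither interval of these ratios, 4.02 (0.878 to 37.3) and 2.09 (0.909 to 4.24), left out 1. Thinned to 1000 UMIs, 10.4% (4.59 to 19.4) of 77 colotomy and 3.23% (2.38 to 4.27) of 1455 sham monocyte-like cells had a Socs3 UMI, against 0.999% and 1.15% of goblet-like cells. Unthinned, 8.36% and 6.34% of monocyte-like cells had one.

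Socs3 lies on chromosome 11 (chr11:117966079-117970047, minus strand, GRCm38). Its promoter is printed since it alone among the members with an entry matched the STAT motif (TTCNNNGAA, the same in both orientations). The match, in capitals, lies at bases 154 to 146 before the RefSeq start. The sequence is RefSeq's for GRCm38.p6, chr11:117969367-117969616, minus strand. This window lies inside the gene as given above, whose coordinates are GENCODE's, because the RefSeq start lies downstream of the GENCODE start.
Socs3: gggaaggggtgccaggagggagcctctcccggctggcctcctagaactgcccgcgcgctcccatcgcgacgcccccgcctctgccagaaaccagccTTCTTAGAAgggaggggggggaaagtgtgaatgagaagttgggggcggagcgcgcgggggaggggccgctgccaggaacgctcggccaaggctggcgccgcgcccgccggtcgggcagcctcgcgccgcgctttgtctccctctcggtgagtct
The STAT motif was found in 7.02% of the 32851 mouse promoters of this length.

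Finer clusters showed where in each class the values lay. The fibroblast-like cluster led by Ptn, Col1a1 and Saa3 held 2055 of the colotomy and 279 of the sham fibroblast-like cells, while the one led by Clec3b, Pcolce2 and Gsn held 1347 and 4635. Ptn, Col1a1 and Saa3 encode a secreted growth factor, a collagen chain and an acute-phase protein. Within the first cluster Osmr stood at 89.2 CPM in the colotomy library and 39.7 CPM in the sham library, a ratio of 2.25 (1.43 to 3.69), beside 6.16% of all tested genes higher. Within the second it stood at 47.2 and 32.2 CPM, and the ratio of 1.47 (1.06 to 2.0) was under the threshold, beside 9.53% of all tested genes higher. Il11ra1 was higher within the first cluster, by 1.60-fold (1.24 to 2.08), and its ratio within the second was 1.36 (1.12 to 1.65). Il6, on 4 colotomy and 6 sham UMIs, was called within the second cluster, by 5.28-fold (1.10 to 22.3).

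At a finer resolution, Osmr was called in 3 of the 4 fibroblast-like subsets. It stood at 44.1 CPM in the colotomy library and 26.1 CPM in the sham library in the subset led by Pi16, Pla1a and Adamts5, a ratio of 1.69 (1.05 to 2.64), beside 8.63% of all tested genes higher. It stood at 88.9 and 40.6 CPM in the one led by Ptn, Saa3 and Col1a1, a ratio of 2.19 (1.37 to 3.69), beside 5.92%. The subset led by Inmt, Gdf10 and Abca8a stood at 72.6 and 38.6 CPM, a ratio of 1.88 (1.04 to 3.17), beside 6.22%. In the subset led by Adamdec1, Grem1 and Bmp4, genes known from fibroblasts beside the crypts, Osmr stood at 73.4 and 37.6 CPM with a ratio of 1.95 (0.891 to 3.84), and Il6st stood at 389 and 174 CPM, a ratio of 2.24 (1.63 to 3.01), beside 6.27%.

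Socs3 was higher in the Ptn subset, at 41.1 CPM in the colotomy library and 16.3 CPM in the sham library, a ratio of 2.53 (1.21 to 6.10). It was also higher in the Inmt subset, at 72.6 and 36.6 CPM, a ratio of 1.98 (1.10 to 3.35). The colotomy Il6 UMIs of fibroblasts lay in the same 2 subsets, 9 in the Ptn subset and 4 in the Inmt subset, against 0 and 0 in the sham library. Both subsets had fewer than 10 Il6 UMIs over both libraries, so the gene was not called in either. The Ptn subset held 8 colotomy Il11 UMIs and 1 sham UMI, with a ratio of 2.38 (0.319 to 106) over 1945 colotomy and 243 sham cells.

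Among myeloid cells, the monocyte-like subset led by Cd209a, Il1b and Ptgs2 held most of the Osm UMIs counted in monocyte-like cells. Its name rests on 5 of 8 monocyte markers, while Cd209a is on the dendritic marker list. The naming rule placed both cell types in the same lineage, so dendritic markers could not block the name. The subset had 42 Osm UMIs in 351 colotomy cells and 13 in 748 sham cells, at 162 CPM and 9.40 CPM, a ratio of 17.3 (9.10 to 35.1), beside 9.8% of all tested genes higher. Socs3 stood at 220 CPM in its colotomy cells and 46.3 CPM in its sham cells, a ratio of 4.76 (3.27 to 6.91). Its Il6ra level was 124 CPM and 113 CPM, a ratio of 1.09 (0.721 to 1.60). Osm and Socs3 were therefore higher in a subset whose IL-6 receptor level did not differ beyond counting error.

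In macrophage-like cells Osm was higher in the Pf4 subset, with 7 UMIs in 284 colotomy cells and 16 in 1768 sham cells, a ratio of 6.80 (2.37 to 17.5), beside 6.5% of all tested genes higher. In the subset led by Mmp12, Spp1 and Gpnmb it had 14 UMIs in 321 colotomy cells and 0 in 73 sham cells. With the 0 replaced by a floor of 3 UMIs the ratio was 2.62. The interval of the ratio from the counts themselves had a lower limit of 1.87, beside 6.14% of all tested genes higher. Another subset, led by Lyz1, Retnla and Ear2, took the macrophage-like name at this resolution although those genes lead the monocyte-like cluster at the coarser one. There Il6ra was higher, at 161 CPM in the colotomy library and 99.5 CPM in the sham library, a ratio of 1.61 (1.03 to 2.44), beside 5.14%.

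**Figure D5:**
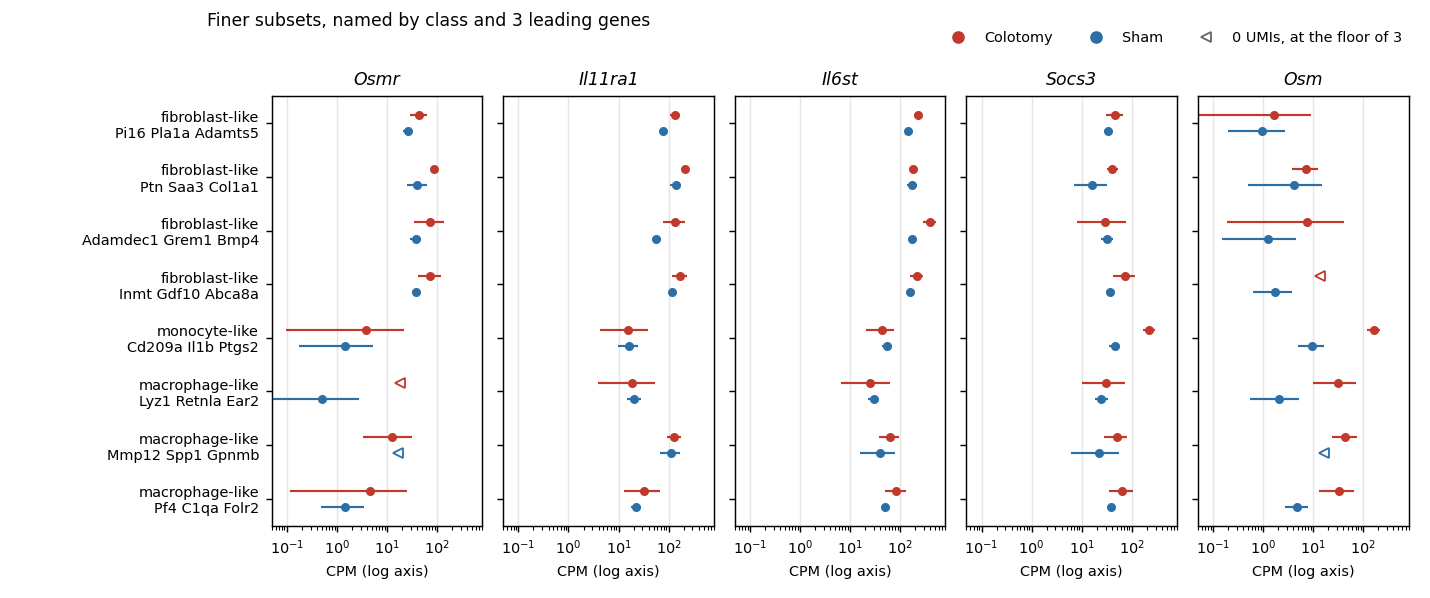
Level in CPM (log axis) of Osmr, Il11ra1, Il6st, Socs3 and Osm in 8 finer subsets named by class and 3 leading genes, with colotomy points in red above sham points in blue and 95% counting intervals. Open triangles mark 0 UMIs, drawn at the level of 3 UMIs. In the Osm panel the colotomy monocyte-like point at 162 CPM stands apart from its sham point at 9.40 CPM.

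The rest of the pathway was read through lists of genes. Of 9 tested genes of other IL-6 family ligands and receptors in fibroblast-like cells, 5 were lower, with a median log2 ratio of -0.93 beside -0.03 over all tested genes. Clcf1, a cytokine of the family, was lower at 6.44 CPM in the colotomy library and 28.7 CPM in the sham library. Il27ra, an interleukin-27 receptor chain, was lower at 10.4 CPM in the colotomy library and 19.7 CPM in the sham library. Il12a, a chain of interleukin-12, and Il31ra, the interleukin-31 receptor gene, were called lower on 1 colotomy UMI each, against 29 and 24 sham UMIs. Ebi3, a chain of interleukin-27, was lower at 1.79 CPM in the colotomy library and 4.80 CPM in the sham library. Lymphocyte RNA was lower in colotomy fibroblast-like cells as well, with Cd79a at 87.3 CPM in the colotomy library and 433 CPM in the sham library, and its part in these values was not tested. In macrophage-like cells 0 of 4 tested genes of the list were higher and 2 lower, Il27ra at 0.227-fold and Clcf1 at 0.477-fold. In monocyte-like cells 0 of 4 and in vascular endothelial-like cells 0 of 3 were called in either direction.

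Among the kinases, STATs and brakes of gp130 signalling, 3 of 19 were higher and 1 lower in fibroblast-like cells, beside 12.8% and 13.4% of all tested genes, and their median log2 ratio was 0.12. The adaptor gene Gab1 was higher at 30.0 CPM in the colotomy library and 15.9 CPM in the sham library, the phosphatase gene Ptpn2 at 39.0 and 24.9 CPM, and the STAT inhibitor Pias3 at 40.1 and 25.6 CPM. Stat5a was lower at 16.5 and 26.8 CPM. In macrophage-like cells 2 were higher, Cish and Gab1, and 1 lower, Stat5b, beside 12.5% and 11.5% of all tested genes. Nothing particular to the list is read from these counts. In monocyte-like cells 1 was higher, Gab1, and 1 lower, Jak2, and in vascular endothelial-like cells 1 was higher, Gab1, and 0 lower. Gab1, whose product couples receptors to downstream kinases, was thus higher in all 4 classes, by 1.89-fold in fibroblast-like, 1.80-fold in macrophage-like, 4.04-fold in monocyte-like and 3.16-fold in vascular endothelial-like cells.

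Genes known to respond to STAT3 were called higher in all 4 classes and lower in none. In fibroblast-like cells 13 of 24 were higher and 0 lower, and their median log2 ratio was 0.70, against -0.03 over all tested genes. Saa3 stood at 504 CPM in the colotomy library and 23.9 CPM in the sham library, and the others with the largest ratios were Reg3b at 27.8-fold, Lcn2 at 27.2-fold and Reg3g at 20.6-fold. Reg3b and Reg3g are antimicrobial genes of the gut epithelium and Lcn2 encodes an iron-carrier-binding protein of neutrophils and epithelium, and the first 2 are also on the list of other cells' RNA described below. The smallest called ratios were those of Steap4 at 1.5-fold and Ccl2 at 1.76-fold. In monocyte-like cells 15 of 22 were higher and 0 lower, with a median of 1.26. Lrg1 had 26 colotomy UMIs and 2 sham UMIs there, a ratio of 105 (26.3 to 913), and Saa3, Reg3b and Lcn2 were 74.9-fold, 66.3-fold and 28.3-fold higher. In macrophage-like cells 14 of 23 were higher and 0 lower, led by Reg3b, Timp1, Lrg1 and Lcn2, and in vascular endothelial-like cells 8 of 21 were higher and 0 lower, led by Timp1, Reg3b, Lcn2 and Lrg1. Higher genes of this list were not particular to the 4 classes. In goblet-like cells Reg3b, Saa3 and Lcn2 were 38.0-fold, 33.8-fold and 19.5-fold higher, while Icam1 was called lower at 0.544-fold. In plasma-like cells Reg3b and Saa3 were 69.2-fold and 31.0-fold higher, and none was called lower. Lrg1, a secreted glycoprotein gene of endothelium, stood at 434 CPM in colotomy and 66.2 CPM in sham vascular endothelial-like cells. It stood higher in neutrophil-like cells, at 555 CPM in the colotomy library and 134 CPM in the sham library. The part of neutrophil RNA in the Lrg1 values of other classes was not tested.

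Other lists were counted in the same 4 classes. Of all tested genes, 12.8% were higher and 13.4% lower in fibroblast-like cells and 12.5% and 11.5% in macrophage-like cells. The shares were 9.81% and 6.11% in monocyte-like and 7.23% and 4.19% in vascular endothelial-like cells. Genes of the free RNA list were higher for 10 of 18 and lower for 4 of 18 in fibroblast-like cells, with a median log2 ratio of 0.88. The list was not cut by class: it kept the fibroblast markers Col1a1 and Col3a1 and the monocyte marker Lyz2. Col1a1 stood at 10951 CPM in colotomy and 1850 CPM in sham fibroblast-like cells, so these counts mix a class's own RNA with that of other cells. S100a9 stood at 99.8 CPM in colotomy and 3.82 CPM in sham fibroblast-like cells. In macrophage-like cells 8 of 18 were higher and 5 lower, in monocyte-like cells 9 of 17 and 4, and in vascular endothelial-like cells 10 of 17 and 3. Immediate early genes, which tissue digestion can switch on, were higher for 3 of 18 in fibroblast-like cells, near the share of all tested genes. They were higher for 12 of 18 in macrophage-like, 13 of 18 in monocyte-like and 5 of 18 in vascular endothelial-like cells. Immediate early genes called lower numbered 0 in each of the 4 classes. NF-kB response genes were higher for 7 of 14 and lower for 1 in fibroblast-like cells, higher for 7 of 13 and lower for 2 in macrophage-like cells and higher for 3 of 10 in vascular endothelial-like cells with 0 lower. They were higher for 9 of 13 and lower for 0 in monocyte-like cells, where Il1b stood at 947 CPM in the colotomy library and 51.4 CPM in the sham library. Junb is on the STAT3 and the immediate early lists, and Reg3b and Reg3g are on the STAT3 and the free RNA lists. The Socs3 calls in monocyte-like and macrophage-like cells held with free RNA subtracted. The part of free RNA in the values of the STAT3 list, and of digestion in those and the Socs3 values, was not tested.

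Over the 31 class-by-library sums of at least 50 cells, the genes whose level followed each member most closely were read from Pearson's r of log2(CPM + 1), as a description, since the sums share 2 libraries of unequal depth. For Osm these were Csf3r (0.930), Cxcr2 (0.867) and Mmp8 (0.857). For Osmr they were Gja1 (0.962), Tns2 (0.953) and Col4a2 (0.937). For Socs3 they were Dstyk (0.856), Tnfsf12 (0.791) and Rnf149 (0.774). The closest genes reached 0.731 for Il6 (Naaa, then Clec9a and Gm16201), 0.763 for Il11 (Gspt2, then Ltbp2 and Zfp78) and 0.791 for Lif (Mfsd4b4, then Aspa and 1810010H24Rik), on 42, 37 and 152 UMIs of the ligand over all kept cells.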

How the data were processed

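Raw UMI counts of 32285 genes and 2 hashtags per barcode were deposited by the authors for 1 colotomy and 1 sham library, made with Cell Ranger 6.0.0 per the file headers. The submitters' processing notes name mm10 and STAR 2.5.1b, and Seurat and Space Ranger with no role. The settings of cell calling are not given in the sources used here. Depth was 12002711 gene UMIs in 15547 colotomy barcodes and 74006762 in 44814 sham barcodes, whose shallowest had 390 and 613 UMIs.

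Barcodes were kept from 500 gene UMIs and 300 genes up, where mitochondrial genes gave less than 20% of UMIs. Scrublet called 0 cells in either library and so did not work, and doublets were not removed. Both libraries were clustered together in scanpy 1.11.5 without integration and without the 10 members and sex-linked genes (2000 variable genes, 30 principal components, 15 neighbours, Leiden resolution 1). Clusters were named from 23 marker lists: a marker needed a UMI in 10% of the cluster's cells and 2 times the CPM of other cells, and a name needed 3 markers with no rival lineage. Mixed clusters were split once at resolution 0.3, and parts that stayed mixed were left unnamed.

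UMIs were summed per class and library and scaled to CPM. CPM have exact Poisson intervals, shares exact Clopper-Pearson intervals and ratios exact conditional binomial intervals at 95% (scipy 1.17.1). PCR duplicates are removed by UMIs, but the intervals cover counting error only. For a fold against a count of 0, the 0 was replaced by 3 counts, and such a fold is not a bound. The free RNA of a class was the median, over 13 to 17 listed genes of other lineages, of their level in the class over that in all barcodes. The calculation was tested on simulated counts. The 10 members are reported whatever their values. For lists, called genes with the largest ratios (up to 4) and the smallest (up to 2) are named, and any others were chosen after their values were seen. The counts of other IL-6 family genes cover 1 gene whose values are not reported here. The members, the lists and the tests were chosen with earlier results of these data known. Coordinates are GENCODE M21 (GRCm38) and promoters RefSeq GRCm38.p6.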

Additional observations from a re-analysis of the deposited data

How the results depend on the processing

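No paired analysis was possible because each operation has 1 library and no test. Under the other settings tried, 148 of 165 fibroblast-like, 109 of 130 macrophage-like, 90 of 93 vascular endothelial-like and 100 of 111 monocyte-like log2 ratios stayed within the interval of the reported value, and 17, 17, 2 and 11 moved out of it without a change of sign. The count of members higher in fibroblast-like cells, 5, became 2 in cells that had Y-linked but no Xist UMIs (Y-linked cells), 2 in cells called for hashtag 1 (with 1 lower), 2 in those called for hashtag 2, 2 within cluster 1 (led by Clec3b) and 3 within cluster 5 (led by Ptn). The macrophage-like count higher, 5, became 2 at 1000 UMIs, 3 at Leiden resolution 2, 3 with scaling by the median ratio, 2 in Y-linked cells, 1 for hashtag 1, 0 for hashtag 2, 3 within cluster 13 (led by Pf4) and 1 within cluster 18 (led by Mmp12). The count lower, 1, became 2 with scaling by the median ratio or without mitochondrial, ribosomal, immunoglobulin and haemoglobin genes, and 0 at resolution 0.5, in Y-linked cells, for hashtag 2 and within clusters 13 and 18. The vascular endothelial-like count higher, 2, became 1 at 1000 UMIs and for hashtag 1, and 0 in Y-linked cells and for hashtag 2. The count lower, 1, became 0 at 1000 UMIs, under 10% mitochondrial UMIs, at resolution 2, without barcodes positive for both hashtags, with free RNA subtracted, in Y-linked cells and for either hashtag. The hashtag, Y-linked and cluster settings leave fewer cells: the colotomy library had 46 Y-linked macrophage-like cells and 20 Y-linked vascular endothelial-like cells. Log2 ratios changed sign for macrophage-like Socs3 (-0.17 for hashtag 1 and -0.013 for hashtag 2), macrophage-like Lifr (0.20 for hashtag 2 and 0.13 within cluster 18) and vascular endothelial-like Il6st (-0.11 for hashtag 2), and the cause was not tested. Monocyte-like Osm (log2 4.42) ranged from 2.43 to 4.71, and it and Socs3 were not called in Y-linked cells or for either hashtag, while Il6st and Il11ra1 were lower in these cells with free RNA subtracted. Resolution 0.5 gave no monocyte-like class. Scaling by the median ratio lowers ratios 1.13-fold in macrophage-like, 1.11-fold in monocyte-like, 1.10-fold in vascular endothelial-like and 1.03-fold in fibroblast-like cells. The settings on shared barcodes and single clusters, and all those of monocyte-like cells, were chosen after seeing the data. Depth limits Il6 and Il11 most, at 42 and 37 UMIs in all.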

Other observations

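Some neutrophil cells stayed in clusters that also carried markers of another lineage and are therefore in no class above. One such cluster, with 7 of 8 neutrophil and 9 of 10 fibroblast markers, held 223 colotomy and 19 sham cells, and its colotomy cells had 33 Osm UMIs at 161 CPM (111 to 226). A second, with 4 of 7 goblet markers beside the neutrophil ones, held 80 colotomy and 2 sham cells and 10 colotomy Osm UMIs, at 92.9 CPM. Over all unnamed clusters Osm stood at 85.8 CPM in the colotomy library and 2.87 CPM in the sham library, a ratio of 29.9 (16.7 to 56.5), where 24.1% of all tested genes were higher. Doublets were not removed and were not told apart from free RNA in these cells. Leaving such cells unnamed keeps 47 of the 196 colotomy Osm UMIs out of every class.

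Osm UMIs were also counted in sham lymphocytes, 63 in 7810 T-like cells and 40 in 12205 B-like cells, at 6.02 and 2.86 CPM. Free RNA would give 0.464 CPM in T-like and 0.385 CPM in B-like cells by the estimate used above. Sham goblet-like cells stood at 1.18 CPM, where the same estimate was 0.514 CPM. Both lymphocyte levels lay further above their estimates than the goblet-like level did, and whether they are expression was not tested. The T-like and B-like classes held more Osm UMIs than the 20 of sham neutrophil-like cells. The colotomy library held 0 Osm UMIs in 69 T-like and 108 B-like cells, and a ratio against so few cells has no bound of use.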
